A study of Mus musculus with 2 samples.

Results

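The core circadian clock genes were described in total RNA-seq of whole heart. The 2 mice were B6CASTF1/J females, aged 36 days, which are hybrids with 1 C57BL/6J and 1 CAST/EiJ parent. They are 10 genes listed by name: the activators Arntl, Clock and Npas2, the PER and CRY repressors Per1, Per2, Per3, Cry1 and Cry2, and the REV-ERB repressors Nr1d1 and Nr1d2. All 10 were found among 55536 mouse genes of the deposited tables, with 42 annotated transcripts between them. The libraries, made from 300 ng of RNA each, form a single group: replicate 2 (animal 4) and replicate 1 (animal 3), which per the labels share a donor identifier. No treatment, mutant or second tissue is part of the series, and the time of day at which the hearts were taken is absent from the labels used here. The gene list was drawn up with earlier results of these libraries in view, both the levels and the ratio between the animals, so all values are descriptions, without a test or p-value.

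The mammalian clock is a feedback loop of transcription. BMAL1, the product of Arntl, pairs with CLOCK or its relative NPAS2 and binds E-box elements of the Per, Cry and Nr1d genes, whose PER and CRY products then block that pair. REV-ERB alpha and beta, encoded by Nr1d1 and Nr1d2, form a second loop by repressing Arntl through ROR elements. In mouse heart, as in other peripheral tissues, Arntl messenger RNA is known to run opposite in phase to the Per and Nr1d messenger RNAs over the day.

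The promoter sequences below show which of these elements stand at the members' starts. RefSeq windows (build GRCm38.p6, the assembly also called mm10) from 250 bases before to 50 bases after an annotated start were held for 9 of the 10 genes, 13 windows in all, and Per2 had no entry. They were searched on both strands for the E-box CACGTG, its variant CACGTT, the D-box as TTATGTAA or TTACGTAA, the ROR element core TAGGTCA and the cyclic AMP element TGACGTCA. No pair of these motifs shared bases at a member's start. At least 1 of these motifs was found in 6 of the 9 genes. The share of all genes with at least 1 of them was not computed, so this count is not read as a trait of the members. Capitals mark the motif, which reads as its reverse complement AACGTG where CACGTT lies on the other strand. Each is given 5′ to 3′ on the gene's strand, 250 bases up to the start, except for Arntl. There the element lies at bases 31 to 37 counted from the later annotated start, 113207511, as 1, and 30 bases around it are given. The earlier Arntl start is at 113207465.
Arntl, chr7:113207530-113207559, plus strand: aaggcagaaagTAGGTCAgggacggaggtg
Per1, chr11:69098699-69098948, plus strand: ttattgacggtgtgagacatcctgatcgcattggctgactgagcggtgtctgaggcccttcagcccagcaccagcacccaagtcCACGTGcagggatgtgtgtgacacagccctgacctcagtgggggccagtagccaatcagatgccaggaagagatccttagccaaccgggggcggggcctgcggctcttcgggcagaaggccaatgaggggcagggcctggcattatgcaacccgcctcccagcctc
Per3, chr4:151044666-151044915, minus strand: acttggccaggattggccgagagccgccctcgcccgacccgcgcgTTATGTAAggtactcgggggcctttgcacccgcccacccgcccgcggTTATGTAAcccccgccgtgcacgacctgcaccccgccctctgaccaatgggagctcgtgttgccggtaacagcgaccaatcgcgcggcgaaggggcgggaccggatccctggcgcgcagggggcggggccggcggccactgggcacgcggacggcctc
Cry1, chr10:85185055-85185304, minus strand: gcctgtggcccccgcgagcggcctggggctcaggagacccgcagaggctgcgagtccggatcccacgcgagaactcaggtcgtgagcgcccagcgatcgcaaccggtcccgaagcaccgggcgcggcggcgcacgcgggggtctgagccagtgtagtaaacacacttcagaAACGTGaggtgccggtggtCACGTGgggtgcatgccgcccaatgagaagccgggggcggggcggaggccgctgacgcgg
Cry2, chr2:92434070-92434319, minus strand: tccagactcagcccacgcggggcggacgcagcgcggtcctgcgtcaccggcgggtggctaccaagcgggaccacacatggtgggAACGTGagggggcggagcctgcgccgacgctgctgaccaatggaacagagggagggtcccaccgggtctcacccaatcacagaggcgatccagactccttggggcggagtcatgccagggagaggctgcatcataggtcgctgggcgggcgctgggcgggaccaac
Nr1d1, chr11:98775378-98775627, minus strand: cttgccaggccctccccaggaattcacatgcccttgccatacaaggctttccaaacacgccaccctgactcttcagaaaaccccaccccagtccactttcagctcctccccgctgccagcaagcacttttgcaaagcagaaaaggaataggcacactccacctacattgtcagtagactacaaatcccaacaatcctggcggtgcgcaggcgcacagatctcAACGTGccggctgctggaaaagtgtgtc

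Per1 and Cry1 held the E-box itself, whose first base lay 166 and 60 bases before the start, and 7.15% of all 32851 promoter windows held it. Cry1, Cry2 and Nr1d1 held the variant CACGTT, found in 4.68% of windows. Per3 had the D-box TTATGTAA at 205 and at 158 bases before its start, a motif in 0.938% of windows. The ROR element core, in 2.61% of windows, was found in 1 of the 2 Arntl windows. The windows of Clock, Npas2 and Nr1d2 and the second Per1 window held none of the 6 letter strings. These are matches of letters and not measured binding sites.

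Levels are given in TPM (transcripts scaled to a common total per library), which correct for transcript length, so that genes can be compared within a library. Nr1d1 and Nr1d2 were the highest members at 45.2 ± 10.7 and 37.0 ± 4.46 TPM (SD over n = 2 libraries, as for each level here). Per1 followed at 24.6 ± 7.01 TPM, then Clock at 10.4 ± 2.04 and Cry2 at 9.99 ± 2.885 TPM. Per3 (5.305 ± 3.10), Per2 (4.12 ± 1.06), Cry1 (2.965 ± 0.375), Arntl (2.52 ± 1.63) and Npas2 (1.135 ± 0.247) were the lower members. Among the 11055 protein-coding genes with at least 1 TPM in both libraries, 88.9% lay below Nr1d1, 55.9% below Clock and 14.2% below Arntl. Of the 9 pairs of neighbours in this order, 5 were separate over both libraries. The other 4 overlapped and changed places between the animals: Nr1d1 with Nr1d2, Clock with Cry2, Per3 with Per2, and Cry1 with Arntl. In the second deposited quantification, which maps reads to a transcript index, Per3 was above Per2 in both libraries (8.57 and 4.63 TPM in replicate 2, 3.62 and 3.23 TPM in replicate 1).

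**Figure D1:**
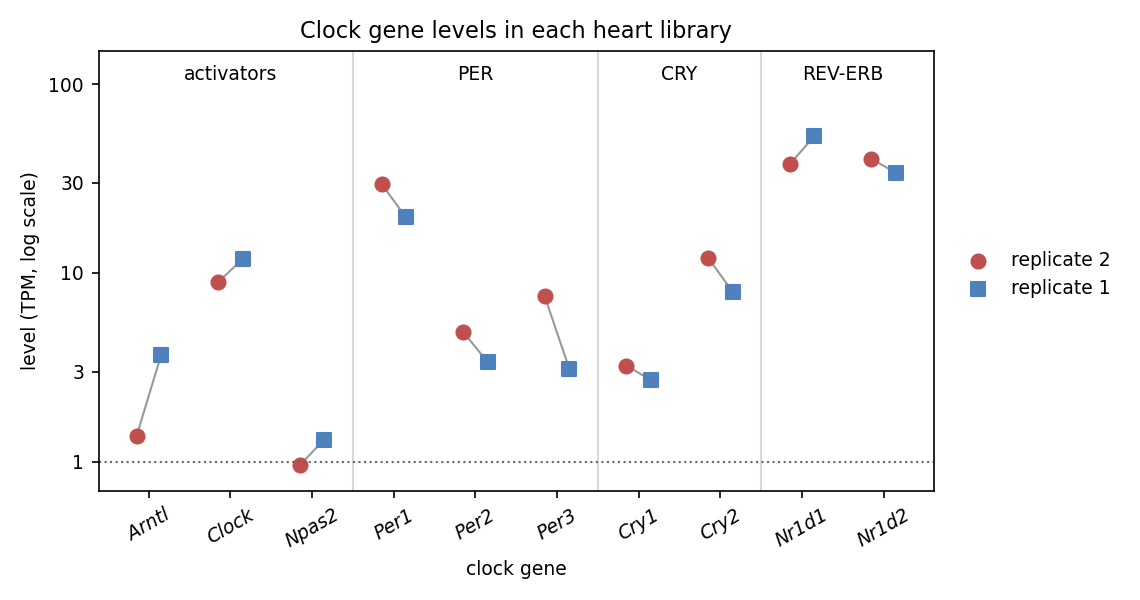
TPM (log scale) of the 10 clock genes in replicate 2 (red circles) and replicate 1 (blue squares), grouped by role, with a dotted line at 1 TPM. The 3 activators and Nr1d1 were lower in replicate 2, and the PER genes, the CRY genes and Nr1d2 were higher there.

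The 3 activators were all lower in replicate 2. Arntl, which encodes the BMAL1 partner of CLOCK and NPAS2, was at 1.37 TPM in replicate 2 and 3.67 TPM in replicate 1, on 113 (exact Poisson 95% interval 93.1 to 136) and 320 (286 to 357) expected counts, the deposited estimates of reads per gene. With libraries scaled by TMM, a factor that centres the bulk of genes, its log2 ratio of replicate 2 over replicate 1 was -1.39 (exact 95% counting interval -1.72 to -1.09), or 2.63-fold lower. Clock, a histone acetyltransferase and DNA-binding partner of BMAL1, was at 8.95 TPM in replicate 2 and 11.83 TPM in replicate 1, with 2093 and 2825 counts. Its log2 ratio was -0.33 (-0.41 to -0.25), which is 1.26-fold lower and far smaller than that of Arntl.

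Npas2, which can stand in for CLOCK, was the lowest member, at 0.96 TPM in replicate 2 and 1.31 TPM in replicate 1. It rested on 100 (81.4 to 122) and 134 (112 to 159) counts, and the interval of its log2 ratio of -0.32 (-0.71 to 0.065) spanned 0. Clock made 79.3% and Npas2 8.51% of the summed activator TPM in replicate 2, against 70.4% and 7.79% in replicate 1. The Clock to Npas2 ratio of levels was thus nearly the same in the hearts, 9.32 and 9.03. Arntl was at 0.153 of the Clock level in replicate 2 and 0.310 in replicate 1.

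The 3 period genes, whose products carry CRY proteins into the nucleus, were all higher in replicate 2. Per3 had the widest gap, with 7.50 TPM (1062 counts) in replicate 2 and 3.11 TPM (485 counts) in replicate 1. Its log2 ratio was 1.23 (1.08 to 1.39), a 2.35-fold difference. Per1 was at 29.58 TPM in replicate 2 and 19.66 TPM in replicate 1, with 2648 and 1881 counts and a log2 ratio of 0.60 (0.51 to 0.68). Per2 was at 4.87 TPM in replicate 2 and 3.37 TPM in replicate 1, with 716 and 531 counts and a log2 ratio of 0.53 (0.37 to 0.70). The intervals of Per1 and Per2 overlapped, while that of Per3 lay above both. Per1 made 70.5% of the period gene TPM in replicate 2 and 75.2% in replicate 1, and Per3 17.9% and 11.9%.

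The cryptochromes, the strongest repressors of the CLOCK and BMAL1 complex, were also higher in replicate 2, though for Cry1 not beyond counting error. Cry2 was at 12.03 TPM in replicate 2 and 7.95 TPM in replicate 1, on 1335 and 922 counts, with a log2 ratio of 0.64 (0.51 to 0.76). Cry1 was at 3.23 TPM in replicate 2 and 2.70 TPM in replicate 1, on 270 (239 to 304) and 248 (218 to 281) counts, with a log2 ratio of 0.23 (-0.029 to 0.48). Cry2 was the main cryptochrome in both hearts, with 78.8% of the cryptochrome TPM in replicate 2 and 74.6% in replicate 1.

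The REV-ERB genes, nuclear receptors that recruit a corepressor to Arntl, went in different directions. Nr1d1 was at 37.59 TPM in replicate 2 and 52.79 TPM in replicate 1, on 2970 and 4275 counts, a log2 ratio of -0.42 (-0.49 to -0.35). Nr1d2 was at 40.17 TPM in replicate 2 and 33.86 TPM in replicate 1, on 4654 and 3991 counts, a log2 ratio of 0.32 (0.26 to 0.39). Nr1d1 therefore took 48.3% of their summed TPM in replicate 2 and 60.9% in replicate 1, so that the leading REV-ERB gene was Nr1d2 in replicate 2 and Nr1d1 in replicate 1. Among the PER, CRY and REV-ERB genes, Nr1d1 was the only one lower in replicate 2.

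Set against each other within a library, activators were scarcer relative to repressors in replicate 2. Arntl, Clock and Npas2 together made 11.28 TPM in replicate 2 and 16.81 TPM in replicate 1, while the PER and CRY genes made 57.21 and 36.79 TPM. The ratio of these sums was 0.197 in replicate 2 and 0.457 in replicate 1, a log2 difference of -1.21. From the summed counts, not scaled by length, the log2 difference was -1.08 (95% counting interval -1.17 to -0.98, normal approximation). With the REV-ERB genes counted among the repressors, the ratios were 0.0836 and 0.136. Such ratios are free of the scaling between libraries. The ratio of levels of Per3 to Arntl was 5.47 in replicate 2 and 0.847 in replicate 1, and that of Per1 to Arntl 21.6 and 5.36. In contrast, PER over CRY stood at 2.75 in replicate 2 and 2.45 in replicate 1. The summed REV-ERB level was 77.76 TPM in replicate 2 and 86.65 TPM in replicate 1.

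**Figure D2:**
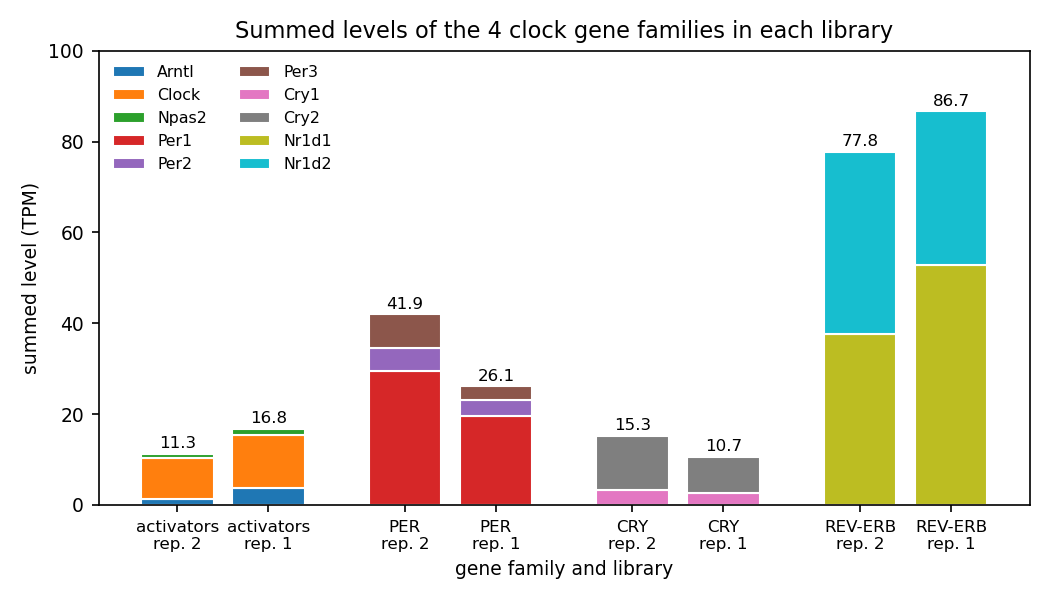
Summed TPM of the activators, the PER genes, the CRY genes and the REV-ERB genes in replicate 2 (left bar of each family) and replicate 1 (right bar), stacked by gene, with the sum above each bar. The PER and CRY bars were taller in replicate 2, at 41.95 and 15.26 TPM against 26.14 and 10.65 TPM in replicate 1, and the activator and REV-ERB bars were shorter there.

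At a fold of 1.5, 3 members were past the threshold and higher in replicate 2 (Per3, Cry2 and Per1) and 1 was past it and lower (Arntl). The background over all 13745 genes that reached 50 counts over both libraries was 2.52% higher and 2.64% lower, or 5.16% either way. At 2-fold, 1 member was higher (Per3) and 1 lower (Arntl), against a background of 0.567% and 0.989%, or 1.56% either way. Since the members were listed with this ratio in view, these counts describe the list and are not read against that background. Per1, at 1.51-fold, lay just past the 1.5-fold limit and Per2, at 1.45-fold, just short of it. The median log2 ratio was 0.27 over the 10 members and 0.00047 over all genes tested. The counting interval lay above 0 for 5 members and below 0 for 3. Its width falls with the count, and the share of all tested genes with such an interval was not computed, so these counts describe the list only. Clock at -0.33 and Nr1d2 at 0.32 were among them, yet within the 5th to 95th percentile of all tested genes (-0.42 to 0.43). The comparison is of the reads of 1 library with those of another, and the spread of clock genes between animals cannot be had from it.

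**Figure D3:**
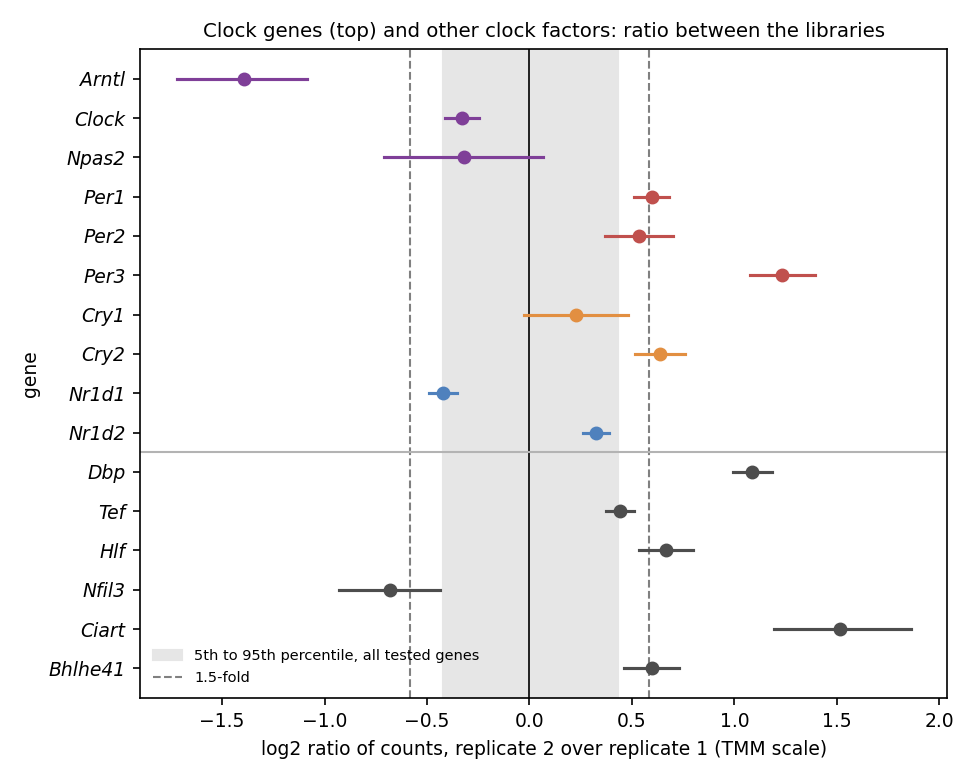
Log2 ratio of counts, replicate 2 over replicate 1, with exact 95% counting intervals, for the 10 clock genes (top) and for other clock factors (bottom, grey points). The grey band spans the 5th to the 95th percentile of all tested genes, -0.42 to 0.43, and dashed lines mark 1.5-fold. Arntl and Nfil3 lie left of the band, Nr1d1 lies at its left edge, and Per1, Per2, Per3, Cry2, Dbp, Tef, Hlf, Ciart and Bhlhe41 right of it.

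The side of 0 on which each member lay was the same under all 5 settings plotted here, whereas the size was not. Scaling by the added ERCC spike-in RNAs moved the median of all tested genes to 0.24, and Clock to -0.087, Npas2 to -0.075 and Nr1d1 to -0.18. On that scale Per2 was also past 1.5-fold, at 0.78. Scaling by total counts left Per1 and Cry2 short of 1.5-fold, at 0.52 and 0.56, and DESeq2 size factors did so for Per1 at 0.58. Arntl ranged from -1.47 to -1.15 and Per3 from 1.16 to 1.48. In the second quantification, Arntl was at 1.55 TPM in replicate 2 and 4.07 TPM in replicate 1.

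**Figure D4:**
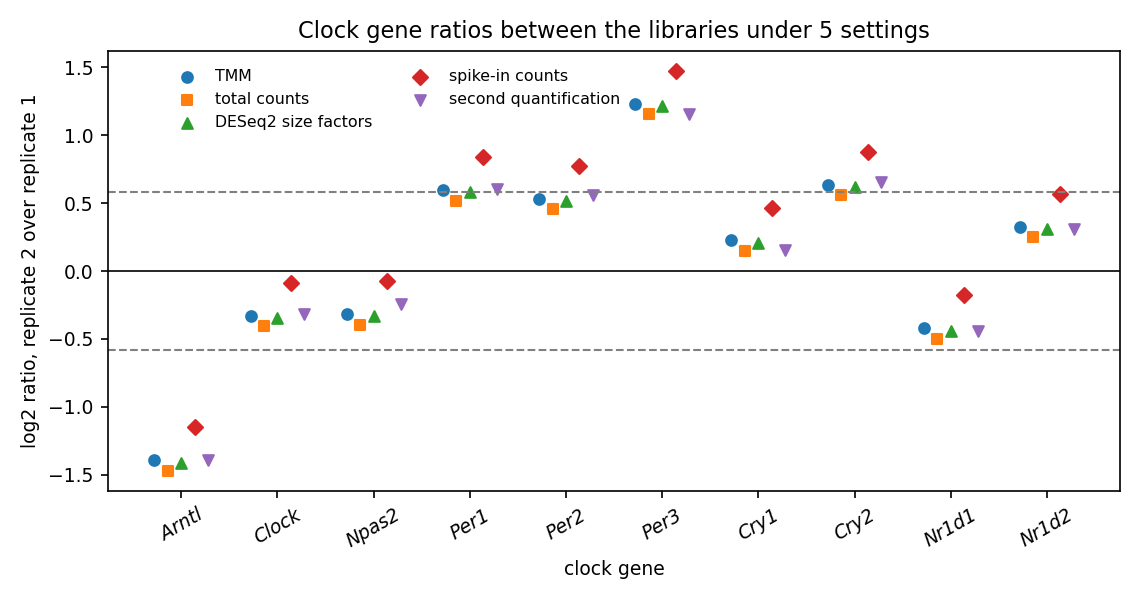
Log2 ratio of replicate 2 over replicate 1 for each clock gene with TMM scaling, total counts, DESeq2 size factors, spike-in counts and the second quantification. Dashed lines mark 1.5-fold. Spike-in scaling shifts every gene up, and no gene crosses 0.

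The 42 transcripts, of which 23 are annotated as protein-coding, gave the same leading transcript for all 10 genes in both quantifications when the libraries were averaged. For 9 genes it also led in each library and quantification. Single transcripts dominated for Nr1d1 (Nr1d1-201, 98.1% ± 0.670 of its TPM by the first quantification), Cry1 (Cry1-201, 96.4% ± 5.04) and Cry2 (Cry2-201, 90.1% ± 2.04). Per2-201 held 85.6% ± 2.33 of Per2, Npas2-201 78.4% ± 2.88 of Npas2, and Nr1d2-201 75.8% ± 1.81 of Nr1d2. The rest of Per2 was Per2-202, a model of 231 bases on only 3.15 counts in replicate 2 and 1.8 in replicate 1. The rest of Npas2 was Npas2-203, an incomplete model of 484 bases on 2.21 and 3.7 counts. In the second quantification Per2-201 held 100% and Npas2-201 70.6%. In the first quantification Clock was shared between Clock-201 (56.8% ± 3.89) and Clock-205 (30.1% ± 1.68), and in the second these held 65.2% ± 0.884 and 18.2% ± 0.194, with 13.5% ± 0.879 in Clock-204. Clock-201 and Clock-205 have the same coding length of 855 codons and differ in total length, 7478 and 9744 bases.

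The Arntl difference lay in its main transcript. Arntl-201, of 626 codons, had 76.25 expected counts in replicate 2 and 264.82 in replicate 1. Arntl-203 (613 codons) had 18.69 and 23.77 counts, and Arntl-206 (633 codons), which starts further downstream, had 13.06 and 13.61. Arntl-201 therefore took 65.4% of the gene's TPM in replicate 2 and 81.7% in replicate 1. The second quantification gave Arntl-201 78.8 and 283.7 counts.

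Per1 was spread over several starts in the first quantification, with 38.9% ± 7.19 in Per1-201, while Per1-201 held 74.7% ± 1.33 in the second. Per1-201, whose start follows the E-box window printed above, had 1391.63 counts in replicate 2 and 1241.25 in replicate 1. Per1-206, of the same 1291 codons but starting 1210 bases downstream, had 733.86 and 398.44 counts, but 40.4 and 195 counts in the second quantification, which turned its direction and gave Per1-201 2363 and 1622 counts. Per1-202, a transcript of 827 codons that starts upstream of both, had 396.27 counts in replicate 2 and 145.97 in replicate 1, and 376.1 and 148.4 in the second quantification. Per1-204, a model of 496 bases with an incomplete end, took 35.3% of the Per1 TPM in replicate 2 and 34.3% in replicate 1, so it led in replicate 2, but only 3.36% and 7.06% in the second quantification. Because it is short, it raises the Per1 TPM on few reads (126 and 84.2 counts). The second quantification had Per1 at 23.1 TPM in replicate 2 and 15.7 TPM in replicate 1.

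Per3 had the largest share outside protein-coding transcripts among the members, 45.1% of its TPM in replicate 2 and 34.0% in replicate 1, and 42.6% and 31.8% in the second quantification. It came from the retained-intron models Per3-202 and Per3-205, the processed transcript Per3-204 and the nonsense-mediated decay transcript Per3-203. Per3-204 had 82.26 counts in replicate 2 and 7.39 in replicate 1, and 74.8 and 0 in the second quantification. The protein-coding Per3-201 alone was at 4.12 TPM in replicate 2 and 2.06 TPM in replicate 1, so the direction of the gene was also that of its coding transcript. Nr1d2 had 21.4% and 24.4% in non-coding models, mainly the retained-intron transcript Nr1d2-202.

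**Figure D5:**
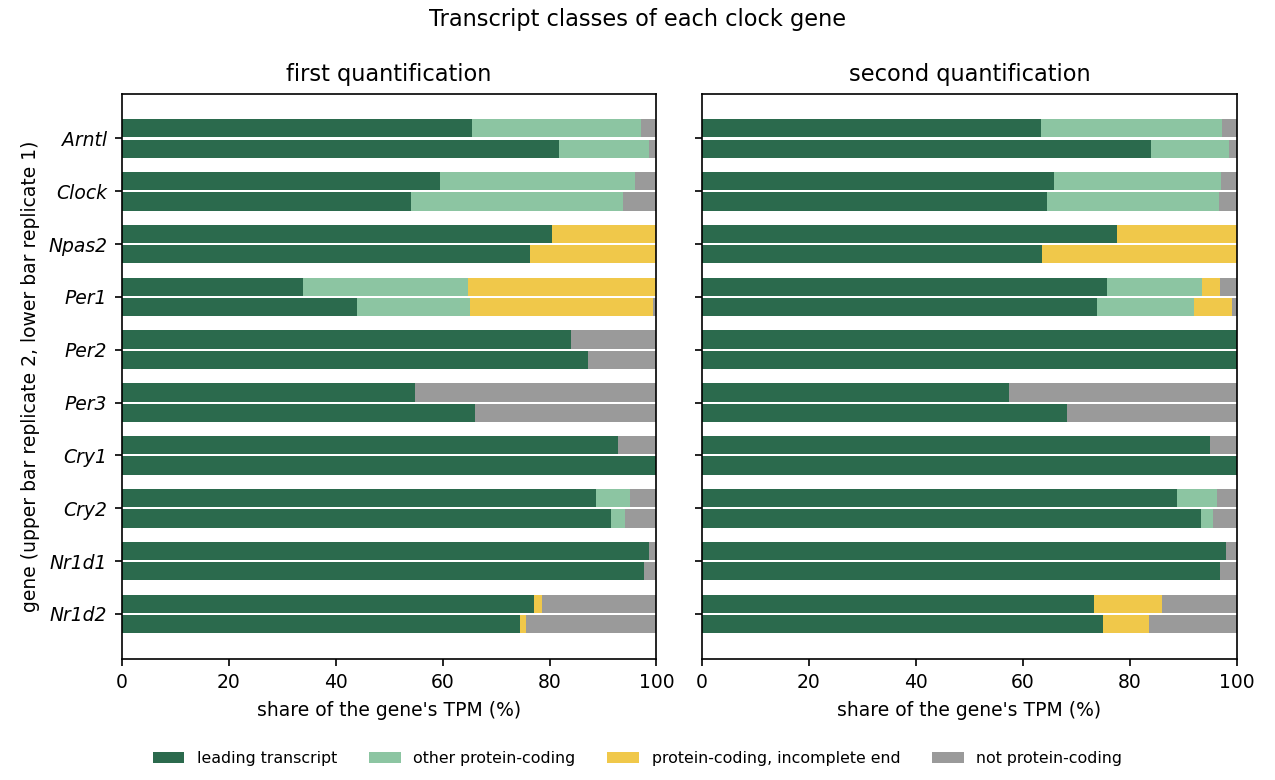
Share of each clock gene's TPM held by its leading transcript, other protein-coding transcripts, protein-coding models with an incomplete end, and non-coding transcripts, in the first (left panel) and the second quantification (right panel), with replicate 2 as the upper and replicate 1 as the lower bar of each gene. Per1 and Clock have the smallest leading shares in the first quantification, 38.9% and 56.8% on average, against 74.7% and 65.2% in the second.

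Outside the core loop, the PAR bZIP factors were higher in replicate 2 and their competitor was lower. They bind D-boxes, the element whose letters were found in the Per3 window, and Dbp is a textbook target of CLOCK and BMAL1. Whether any of these factors acts on Per3 in these hearts was not tested. Dbp was at 56.87 TPM in replicate 2 and 28.48 TPM in replicate 1, a log2 ratio of 1.09 (0.99 to 1.18). Hlf had 7.67 and 4.94 TPM, a log2 ratio of 0.66 (0.53 to 0.80), and Tef 47.70 and 38.72 TPM, a log2 ratio of 0.44 (0.37 to 0.51). Nfil3, the repressor that binds the same D-boxes, was at 3.72 TPM in replicate 2 and 6.21 TPM in replicate 1, a log2 ratio of -0.68 (-0.93 to -0.44). Of these 4 factors, 2 were past 1.5-fold and higher (Dbp and Hlf) and 1 was past it and lower (Nfil3). Of all genes tested, 2.52% were past 1.5-fold and higher and 2.64% were past it and lower. As this list was also chosen with earlier results known, its counts describe the list only.

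Among 22 other clock regulators, 20 had enough counts and 2 were past 1.5-fold, both higher in replicate 2, with a median log2 ratio of 0.13. Over all genes tested, 5.16% were past 1.5-fold either way. This list too was chosen with earlier results known, so the count is not read as a trait of the regulators. Ciart, encoding CHRONO, a further repressor of the BMAL1 complex, was at 7.26 TPM in replicate 2 and 3.18 TPM in replicate 1, a log2 ratio of 1.52 (1.19 to 1.86). Bhlhe41, encoding the E-box repressor DEC2, had 10.30 and 7.58 TPM, with a log2 ratio of 0.60 (0.46 to 0.73). Its paralogue Bhlhe40 was at 22.13 and 21.22 TPM. The highest regulator was the ubiquitin protease Usp2 at 71.25 and 59.31 TPM, and the lowest in mean the neural receptor Rorb at 0.17 and 0.15 TPM. Rora, an activator of Arntl that competes with REV-ERB for its ROR elements, was at 10.90 TPM in replicate 2 and 10.37 TPM in replicate 1. The casein kinases that phosphorylate PER, Csnk1d and Csnk1e, had log2 ratios of 0.14 and 0.22.

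Cardiomyocyte markers differed little, while blood, fat and some immediate early genes also differed between the libraries. All 10 cardiomyocyte markers were detected, with summed levels of 41839 TPM in replicate 2 and 42725 TPM in replicate 1, led by Myh6, and none was past 1.5-fold. All 7 erythroid markers, led by Hbb-bs, were at least 2-fold lower in replicate 2, with log2 ratios of -2.70 to -1.52 and sums of 11883 and 36364 TPM. Of 5 brown adipocyte markers, 4 were past 1.5-fold and lower and 3 of these past 2-fold (Ucp1, Dio2 and Elovl3), with sums of 34.15 TPM in replicate 2 and 102.95 TPM in replicate 1 and Cidea highest in mean. Of 5 white adipocyte markers, 3 could be compared and Adipoq and Plin1 were over 2-fold lower, with sums of 32.37 and 56.62 TPM. Of all genes tested, 2.64% were at least 1.5-fold lower and 0.989% at least 2-fold lower. The marker lists were chosen with earlier results known.

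Immediate early genes, a response list to which Per1 is itself often counted, had 12 of 13 genes with enough counts. Fos, Nr4a1, Nr4a3 and Atf3 were over 2-fold higher in replicate 2, and Fosb was over 2-fold lower. Among all genes tested, 0.567% were at least 2-fold higher and 0.989% at least 2-fold lower. Nr4a1 was the widest at 35.48 TPM in replicate 2 and 4.01 TPM in replicate 1. The sums were 151.22 TPM in replicate 2 and 100.92 TPM in replicate 1, with Dusp1 highest in mean. Endothelial, fibroblast and macrophage markers, led by Fabp4, Dcn and Lyz2, were all detected, and none of these 15 genes was past 1.5-fold. Of the skeletal muscle list, Myh4 was at 0 counts in both libraries and Ckm was highest. Acta1, of the same list, was past 1.5-fold and lower, at 307.98 TPM in replicate 2 and 511.07 TPM in replicate 1 (log2 ratio -0.67). In whole tissue, fewer cells of a type and less RNA per cell cannot be told apart. The part that any of these lists has in the clock gene values was not tested.

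Mouse genes held 38168674 expected counts in replicate 2 and 38845613 in replicate 1, so that 3 counts, the upper limit behind an observed 0, made 0.0786 and 0.0772 CPM, counts scaled to library totals. Intervals cover counting error only, as each side of a ratio is 1 library. Reads were not marked by molecule, so copies of the same molecule could not be told apart and the intervals may be too narrow. For 9 of the 10 members the expected counts were whole numbers within 0.005 in both libraries, so next to no reads were divided with other genes. Nr1d2 was the exception, at 4654.2 and 3991.15 expected counts. Nr1d1 shares 263 of its 3077 exonic bases with Thra on the opposite strand, and Thra was at 39.86 and 39.88 TPM. Whether counting used the strand was not stated in the files. The antisense neighbours of Arntl and Cry2 that share exonic bases, Gm45355 and D930015M05Rik, had 0 counts in both libraries.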

How the data were processed

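Total RNA of 2 hearts was sequenced. The authors quantified reads against mm10 and annotation M21, per the deposited description files; their program names: not given in the sources used here. In the first quantification are deposited expected counts (estimated reads, not normalized), TPM and FPKM (per length and depth) from transcriptome alignments. The second holds deposited estimated counts and TPM from a transcript index, summed here per gene. The mm10 reference is of C57BL/6J, and how CAST reads fared was not measured.

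Expected counts were rounded, scaled by TMM (edgeR 4.0.16), and compared as log2 ratios with 0.5 added and exact binomial 95% intervals, for genes reaching 50 counts in total. These functions were tested on simulated data. With 1 group no test between conditions exists and no p-value is given. Total counts, DESeq2 1.42.0 size factors, spike-ins, other filters and the second quantification were tried. Members and lists were chosen with earlier results of these data known. Named are the 10 members, their leading transcripts, all output factors, of the regulators the highest, the lowest and those past 1.5-fold, and of the marker lists the highest and those past 2-fold. Other transcripts, Bhlhe40, Rora, Csnk1d, Csnk1e, Myh4, Acta1 and the overlapping genes were named after their values were seen. Erythroid members past 2-fold are given by count.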

Additional observations from a re-analysis of the deposited data

How the results depend on the processing

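The log2 ratio of each member and of the activators to repressors kept its sign in every alternative run, while the second quantification turned the direction of Per1-206 and put Per3 above Per2 in replicate 1. The ratio of summed activators to PER and CRY averaged 0.327, from 0.197 without replicate 1 to 0.457 without replicate 2, and it was 0.695 without Per1, 0.110 with Nr1d1 and Nr1d2 added, 0.594 from summed counts and 0.4003 without the partial transcript Per1-204. Its log2 difference of -1.21 was -0.70 with Nr1d1 and Nr1d2 added, -1.41 from mean log2 levels and -1.08 from summed counts. Its size thus depended on which repressors were counted, as the summed REV-ERB level was 77.76 TPM in replicate 2 and 86.65 TPM in replicate 1. Mean log2 levels and summed counts weigh the same genes in other ways. Members at least 1.5-fold higher in replicate 2 numbered 3, but 1 by total counts and 1 at 2-fold. The 1 lower member, Arntl, left the comparison (0 members) at a summed count of at least 500. Over all genes, 346 were higher and 363 lower. These became 1035 and 198 with spike-in scaling, 3959 and 3902 with no count filter, 59 and 108 at a summed count of at least 500, and 78 and 136 at 2-fold. The 2-fold setting and the activator to repressor ratios from summed counts and without Per1-204 were chosen after seeing the data. No paired analysis was possible because the libraries form 1 group. Depth limits Npas2, Arntl and Cry1 most. With 2 animals, no spread within a time of day can be measured.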
